A study of Mus musculus with 4 samples.

Results

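The genes described here are Mdm2 and Mdm4, the main negative regulators of p53, and 7 transcriptional targets of p53, Fas, Trp53inp1, Ccng1, Zmat3, Phlda3, Ei24 and Sesn1, measured in mouse leukemic cells with and without Ezh2. The members were all probe sets whose single gene symbol in the platform annotation of the Affymetrix mouse genome array was one of 10 listed genes. Trp53 itself was the tenth gene and was not analysed here, so 9 genes with 20 probe sets remained of 18193 genes and 45101 probe sets in all. The groups were Ezh2 KO leukemic cells (2 samples) and wild-type leukemic cells (WT, 2 samples). Both groups carried the MLL-AF9 fusion gene and came from the marrow of C57BL/6 mice that had received the leukemic cells as a transplant. MLL-AF9 is the product of a chromosomal translocation that drives acute myeloid leukemia, and Ezh2 is the methyltransferase of Polycomb repressive complex PRC2. The labels give the genotype of the knockout samples as Ezh2 KO, but another of their entries describes marrow lacking Ink4a and Arf. They give no age of the mice, no means of deletion and no word on whether the samples of a group came from different mice, so p-values reflect the differences among these 4 samples alone, and those could be technical.

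The p53 protein is a transcription factor that is kept at a low level in unstressed cells because Mdm2, an E3 ubiquitin ligase, binds it and marks it for the proteasome. Mdm4 binds the same part of p53 and blocks its activity, mostly without ubiquitinating it by itself. Stress signals break this inhibition, p53 then activates genes of cell cycle arrest, DNA repair and cell death, and Mdm2 is one of those genes, which closes a feedback loop. Arf, a product of the Cdkn2a locus, binds and inhibits Mdm2. Cdkn2a is a known Polycomb target in blood cells.

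Every sample had a 1-colour array to itself, and precision is limited by there being 4 arrays. A probe set is a group of short probes read together, and its value is an intensity on a linear scale in arbitrary units, which can be compared between arrays but not between probe sets. Across 25580 tested probe sets the log2 values correlated at r = 0.983 between the Ezh2 KO arrays, at 0.982 between the WT arrays and at 0.973 to 0.977 between the groups, a description over probe sets that are not independent replicates. The single probe set named for Ezh2 had 4989 and 4991 units on the Ezh2 KO arrays and 5216 and 5315 units on the WT arrays. Whether its probes lie in the deleted exons is unknown, so it is no check of the deletion. All 9 measured genes on a list of leukemic myeloid markers passed the filter on dim probe sets, and their summed intensity was 70776 and 74447 units on the Ezh2 KO arrays against 65078 and 66900 units on the WT arrays. A sum follows its brightest probe sets, here those of Mpo and Hoxa9, which were not called. Of the 9 markers 3 were called, where 9.61% of all genes tested were: the integrin subunit gene Itgam, 1.67-fold higher in Ezh2 KO (limma adjusted p = 0.00095), the growth factor receptor gene Csf1r, 1.40-fold higher (limma adjusted p = 0.00617), and the transcription factor gene Cebpa, which fell by 0.63 on the log2 scale (limma adjusted p = 0.0107). Among 4 T cell markers the sum was 88.2 to 101 units against 65.4 to 72.0 units, and among 5 B cell markers it was 840 to 965 units against 825 to 839 units, most of it from Cd79b. It was 247 to 261 units against 210 to 254 units over 5 erythroid markers and 472 to 540 units against 577 to 595 units over 7 stromal and endothelial markers. Of these 21 markers of other cell types 14 passed the filter and limma called 0 (1 at an unadjusted p under 0.05, the endothelial gene Pecam1, lower in Ezh2 KO). None of the markers was at exactly 0, and their part in the results, that of the myeloid markers included, was not tested. In such bulk samples fewer cells of a type and less RNA per cell cannot be told apart.

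The comparison of Ezh2 KO with WT cells addresses which transcripts differ when the leukemic cells are labelled as lacking Ezh2. Values were tested as log2(intensity + 16) with limma across all 25580 probe sets, folds are on that scale, and a probe set was called at an adjusted p under 0.05. Of the 20 member probe sets 19 passed the filter and were tested. Trp53inp1, at its brighter probe set, was the one called, and it rose 1.30-fold. That is 1 of 19 tested member probe sets higher and 0 lower, where 7.98% of all tested probe sets were called, 4.08% as higher and 3.91% as lower, so the count stood near the background. The unadjusted p was under 0.05 for 8 of the 19, all of them with higher values in Ezh2 KO, against 21.9% of all tested probe sets. On the 4 arrays, 10 of the 19 had both Ezh2 KO values above both WT values, against 27.3% of all tested probe sets, and 2 had both below, against 23.2%. Counted by gene at the probe set of highest mean, 1 of the 9 was called, against 9.61% of 13928 genes, 6 had both Ezh2 KO arrays above both WT arrays, against 26.2%, and 0 had both below, against 26.4%. The log2 change was positive for 15 of the 19, against 53.4% of all tested probe sets. Median centring lowered every log2 change by 0.097, and it was then positive for 11 of the 19, against 40.4% of all. The median log2 change was 0.24 over the 19 member probe sets and 0.03 over all tested probe sets. At their brightest probe sets the members fell into genes with values 1.2-fold to 1.8-fold higher in the Ezh2 KO cells, namely Fas, Zmat3, Phlda3, Trp53inp1, Sesn1 and Mdm2, and genes whose values overlapped or differed by little, namely Mdm4, Ccng1 and Ei24.

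**Figure D1:**
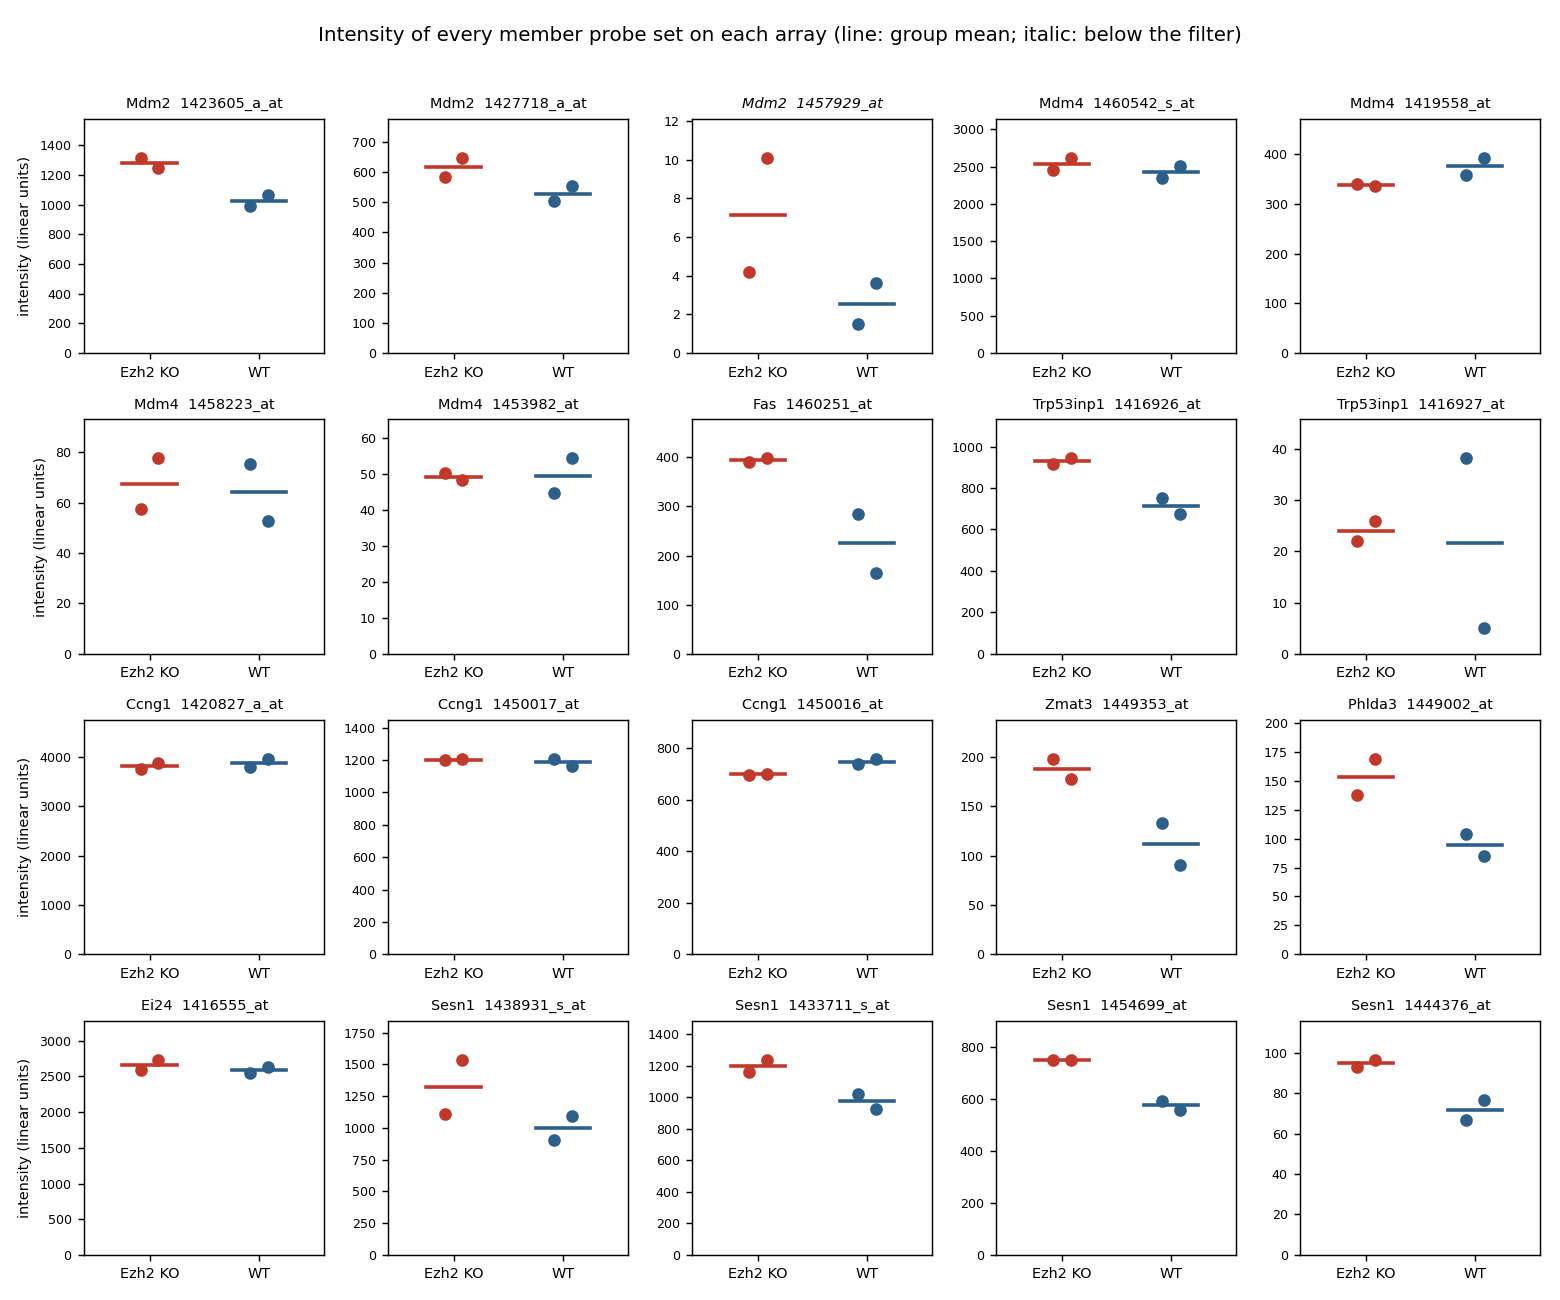
Intensity in linear units of each of the 20 member probe sets on the 2 Ezh2 KO arrays (red, left) and the 2 WT arrays (blue, right), with a line at each group mean and axes that start at 0. The Ezh2 KO points lie above the WT points in every panel of Mdm2 and Sesn1 and in those of Fas, Zmat3 and Phlda3, while those of Ei24 lie side by side.

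Promoter sequence was examined because p53 acts through a DNA element, here searched as the p53 decamer, of which a full site holds a pair. Its pattern reads the same on both strands, and the windows of 300 bases, 250 before and 50 after a start site, were those of RefSeq on GRCm38.p6. The table held 10 windows for 8 of the 10 listed genes and none for Trp53inp1 and Zmat3. The decamer matched 5 of the 10 windows, those of Mdm2, Ccng1, Ei24 and Trp53 and 1 of 2 windows of Sesn1, and it matched 8.36% of 32851 promoter windows of the genome. A full site, with a spacer of up to 13 bases, was in 0 of the 10 windows and in 0.0731% of all windows. A window of Cdkn1a held a full site by this pattern, the decamers starting 73 and 51 bases before the start site. The other window of Cdkn1a held no decamer. The windows that held the decamer, other than that of Trp53, are printed 5′ to 3′ with the decamer in capitals. They include members with higher values that were not called (Mdm2, Sesn1) and members without (Ccng1, Ei24). A link between the decamer and the changes was not tested.
Mdm2, chr10:117710709-117711008, minus strand: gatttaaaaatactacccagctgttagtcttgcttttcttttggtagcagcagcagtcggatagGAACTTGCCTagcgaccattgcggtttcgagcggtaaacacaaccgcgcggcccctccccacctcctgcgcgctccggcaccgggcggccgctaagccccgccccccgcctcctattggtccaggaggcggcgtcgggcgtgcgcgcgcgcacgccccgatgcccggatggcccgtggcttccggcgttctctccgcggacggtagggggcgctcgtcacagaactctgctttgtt
Sesn1, chr10:41887189-41887488, plus strand: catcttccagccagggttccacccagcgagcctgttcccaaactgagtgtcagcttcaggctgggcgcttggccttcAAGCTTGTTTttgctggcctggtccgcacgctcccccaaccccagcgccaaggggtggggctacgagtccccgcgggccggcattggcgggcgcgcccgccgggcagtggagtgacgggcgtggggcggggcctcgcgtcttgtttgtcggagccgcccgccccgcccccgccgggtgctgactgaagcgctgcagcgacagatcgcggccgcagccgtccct
Ccng1, chr11:40755237-40755536, minus strand: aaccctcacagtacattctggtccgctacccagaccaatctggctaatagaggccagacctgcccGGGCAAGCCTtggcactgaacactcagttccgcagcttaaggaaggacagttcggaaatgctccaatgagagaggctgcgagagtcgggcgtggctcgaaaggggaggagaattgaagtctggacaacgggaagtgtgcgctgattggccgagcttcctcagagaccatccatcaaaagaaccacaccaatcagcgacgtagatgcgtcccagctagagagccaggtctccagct
Ei24, chr9:36797285-36797584, minus strand: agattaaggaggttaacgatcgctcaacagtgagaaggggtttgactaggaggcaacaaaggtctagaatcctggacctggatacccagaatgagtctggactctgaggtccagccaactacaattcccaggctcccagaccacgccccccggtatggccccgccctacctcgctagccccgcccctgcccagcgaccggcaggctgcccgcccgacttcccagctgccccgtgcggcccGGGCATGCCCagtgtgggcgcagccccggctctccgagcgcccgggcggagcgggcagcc
Cdkn1a, chr17:29090729-29091028, plus strand: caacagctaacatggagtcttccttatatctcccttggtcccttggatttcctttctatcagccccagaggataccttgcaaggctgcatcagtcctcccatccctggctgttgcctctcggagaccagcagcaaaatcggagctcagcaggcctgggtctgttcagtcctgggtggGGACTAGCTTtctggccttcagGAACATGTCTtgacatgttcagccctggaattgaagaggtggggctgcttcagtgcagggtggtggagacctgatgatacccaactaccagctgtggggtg
A match describes these letters and is not a bound site. The windows of Fas and Phlda3, whose values were among the highest relative to WT, held no match to the decamer. Only these windows of 300 bases were searched, so an absence there does not show that a gene lacks a p53 site elsewhere.

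Among the regulators of p53, Mdm2 was read by 3 probe sets and all had higher values in the Ezh2 KO cells. The brightest, 1423605_a_at, had 1317 and 1249 units on the Ezh2 KO arrays and 991 and 1065 units on the WT arrays. The groups were apart by 0.23 on the log2 scale at their closest, more than the widest gap within a group, 0.10. The log2 change was 0.32 (SE 0.09, 95% interval 0.12 to 0.51), a 1.24-fold difference that missed the threshold (limma adjusted p = 0.0585). The second, 1427718_a_at, had 584 and 648 units in Ezh2 KO and 505 and 553 units in WT. These groups did not overlap either, but the interval of the log2 change of 0.21 ran from -0.04 to 0.47 (limma adjusted p = 0.320). The third, 1457929_at, lay below the filter intensity of 21.9, at 4.17 and 10.1 units in Ezh2 KO and 1.48 and 3.62 units in WT, and was not tested. The brightest Mdm2 probe set passed in 3 of 15 alternative settings. It did so with 1 probe set per gene tested and adjusted over genes (limma adjusted p = 0.0371). With median centring its log2 change was 0.22 (limma adjusted p = 0.358). Without WT replicate 1 the same log2 change was 0.26 (limma adjusted p = 0.222).

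Mdm4, the relative of Mdm2 that restrains p53 activity, had 4 tested probe sets and no call, and their log2 changes lay from -0.15 to 0.06. The brightest, 1460542_s_at, had 2453 and 2617 units in Ezh2 KO and 2349 and 2506 units in WT. The groups overlapped, and the 95% interval of the log2 change of 0.06 ran from -0.11 to 0.23. The probe set 1419558_at had 340 and 336 units in Ezh2 KO and 359 and 393 units in WT. Here the Ezh2 KO arrays were the lower ones, by a log2 change of -0.15 with an interval from -0.44 to 0.14. The probe set 1458223_at had 57.4 and 77.6 units in Ezh2 KO and 75.5 and 52.9 units in WT, and 1453982_at had 50.3 and 48.2 units in Ezh2 KO and 44.8 and 54.4 units in WT. Both were dim and overlapped between the groups. Their intervals of the log2 change were wide in both directions, from -0.65 to 0.77 and from -0.76 to 0.75. The brightest had -0.035 with median centring, which lowered all changes alike, and 1458223_at had -0.049 with quantile normalization. An s in the name of a probe set marks probes that can match transcripts of other genes, so the level of the brightest is less certain.

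Of the targets that act in cell death, Fas encodes the death receptor that binds Fas ligand and starts the caspase cascade. Its probe set 1460251_at had 391 and 398 units in Ezh2 KO and 285 and 164 units in WT. The Ezh2 KO arrays were close to each other and above both WT arrays, while the WT arrays differed from each other by 0.74 on the log2 scale. The log2 change of 0.82 (SE 0.22, interval 0.33 to 1.31) was the largest among the 19 tested member probe sets and missed the threshold (limma adjusted p = 0.0524). It was 1.19 without WT replicate 1 (limma adjusted p = 0.00585) and 0.45 without WT replicate 2 (limma adjusted p = 0.157), so its size rested on which WT array was used. Without Ezh2 KO replicate 1 or 2 it was 0.83 and 0.81, and past the threshold in both fits (limma adjusted p = 0.0285 and 0.0266).

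Trp53inp1 encodes a nuclear protein that promotes p53-dependent cell death and also takes part in autophagy. Its probe set 1416926_at had 914 and 943 units in Ezh2 KO and 752 and 672 units in WT. The groups were apart by 0.28 on the log2 scale, against at most 0.16 within a group. It rose by a log2 change of 0.38 (SE 0.10, interval 0.16 to 0.60, limma adjusted p = 0.0482). The call was lost in each fit that left out an array, at log2 changes of 0.46 and 0.30 without WT replicate 1 and 2, and 0.40 and 0.36 without Ezh2 KO replicate 1 and 2. In all it was lost in 10 of 15 alternative settings, median centring among them (log2 change 0.28, limma adjusted p = 0.218). The other probe set, 1416927_at, was designed from the same sequence record and lay near the filter, at 22.1 and 25.9 units in Ezh2 KO and 38.2 and 5.02 units in WT. Its WT values spanned the Ezh2 KO values, so that it neither repeated nor contradicted the first (log2 change 0.24, interval -1.04 to 1.53).

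Ei24, a protein of the endoplasmic reticulum first described as induced by p53 and required in autophagy, had 2592 and 2736 units in Ezh2 KO and 2553 and 2638 units in WT. The groups overlapped, and the interval of the log2 change of 0.04 ran from -0.12 to 0.20 (limma adjusted p = 0.826). With median centring it was -0.060.

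**Figure D2:**
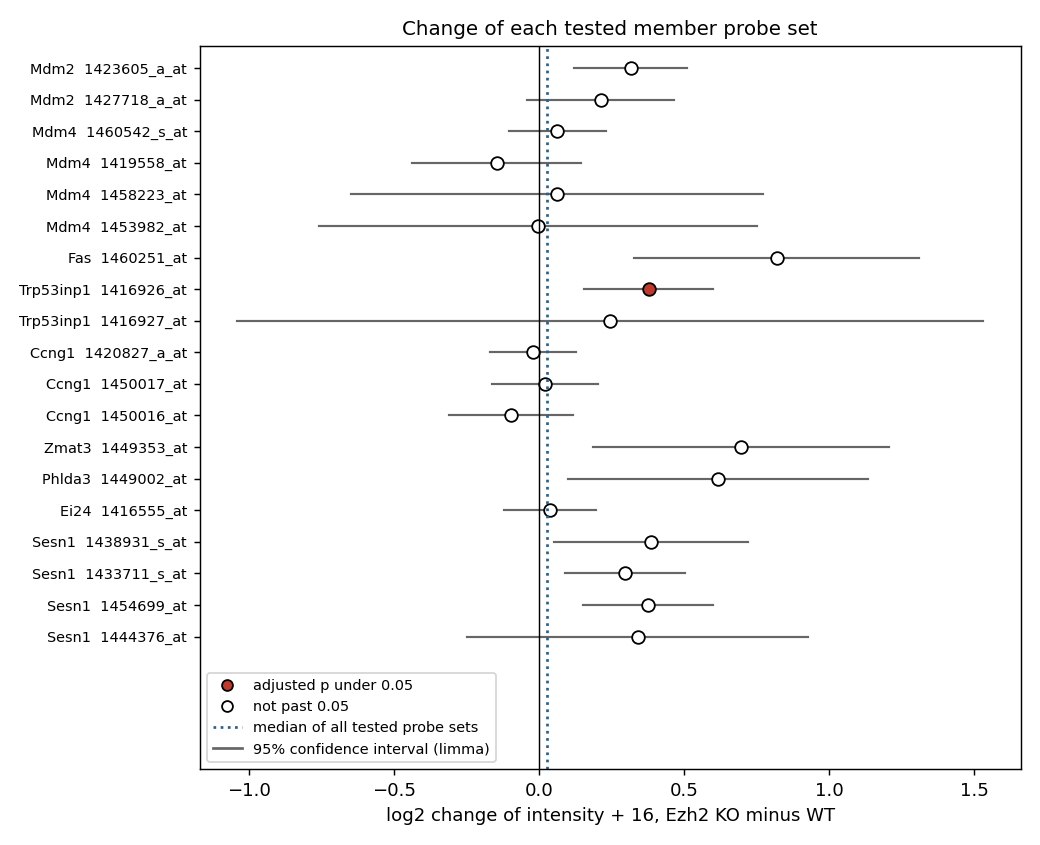
Log2 change of intensity + 16, Ezh2 KO minus WT, of the 19 tested member probe sets with the 95% interval from limma, the dotted line marking the median of all tested probe sets at 0.03. The filled point is Trp53inp1 1416926_at, the open points of Fas, Zmat3, Phlda3, Sesn1 and Mdm2 all lie right of 0, and those of Mdm4, Ccng1 and Ei24 lie near 0.

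Among the targets tied to growth arrest and growth signalling, Ccng1 encodes cyclin G1, which recruits a phosphatase that acts on Mdm2. It had 3 probe sets, all bright and without a call. The brightest, 1420827_a_at, had 3755 and 3889 units in Ezh2 KO and 3794 and 3959 units in WT, and 1450017_at had 1199 and 1206 units in Ezh2 KO and 1206 and 1166 units in WT. These groups overlapped, with intervals of the log2 change from -0.17 to 0.13 and from -0.16 to 0.20, and changes of -0.02 and 0.02, which were 0.0035 for the first with quantile normalization and -0.077 for the second with median centring. The third, 1450016_at, had 696 and 698 units in Ezh2 KO and 738 and 757 units in WT, both Ezh2 KO arrays being lower (log2 change -0.10, interval -0.31 to 0.12).

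Zmat3, a zinc finger protein that binds RNA, had 198 and 178 units in Ezh2 KO and 133 and 90.1 units in WT. The groups did not overlap, but the WT arrays lay further from each other, by 0.49 on the log2 scale, than the groups at their closest, 0.38. Its log2 change was 0.70 (SE 0.23, interval 0.18 to 1.21, limma adjusted p = 0.101), and 0.45 without WT replicate 2 (limma adjusted p = 0.324). Phlda3, whose small protein competes with the kinase Akt for membrane lipids, had 138 and 169 units in Ezh2 KO and 105 and 84.6 units in WT. The groups were apart by 0.35, more than the 0.27 within a group, with a log2 change of 0.62 (SE 0.23, interval 0.10 to 1.13, limma adjusted p = 0.149).

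Sesn1 encodes sestrin 1, which restrains the growth kinase complex mTORC1 and limits oxidative stress, and each of its 4 probe sets had both Ezh2 KO arrays above both WT arrays. The probe set 1454699_at had 749 and 751 units in Ezh2 KO and 593 and 557 units in WT. It showed the clearest separation of the 4, a log2 change of 0.38 (SE 0.10, interval 0.15 to 0.60, limma adjusted p = 0.0522). From the same sequence record, 1433711_s_at had 1159 and 1239 units in Ezh2 KO and 1021 and 928 units in WT, a log2 change of 0.30 (limma adjusted p = 0.0856). The brightest, 1438931_s_at, had 1108 and 1537 units in Ezh2 KO and 904 and 1096 units in WT. Its groups nearly met, its log2 change was 0.39 (limma adjusted p = 0.163), and leaving out Ezh2 KO replicate 1 gave 0.62 (limma adjusted p = 0.00133) while leaving out Ezh2 KO replicate 2 gave 0.15 (limma adjusted p = 0.594). The dimmest, 1444376_at, had 92.9 and 96.5 units in Ezh2 KO and 66.8 and 76.4 units in WT, a log2 change of 0.34 (interval -0.25 to 0.93). The 4 log2 changes thus lay between 0.30 and 0.39, but these probe sets are named for 1 gene in the same samples and are not independent of each other. Probes of 1438931_s_at and 1433711_s_at, with an s in the name, can match transcripts of other genes, so their levels are less certain.

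**Figure D3:**
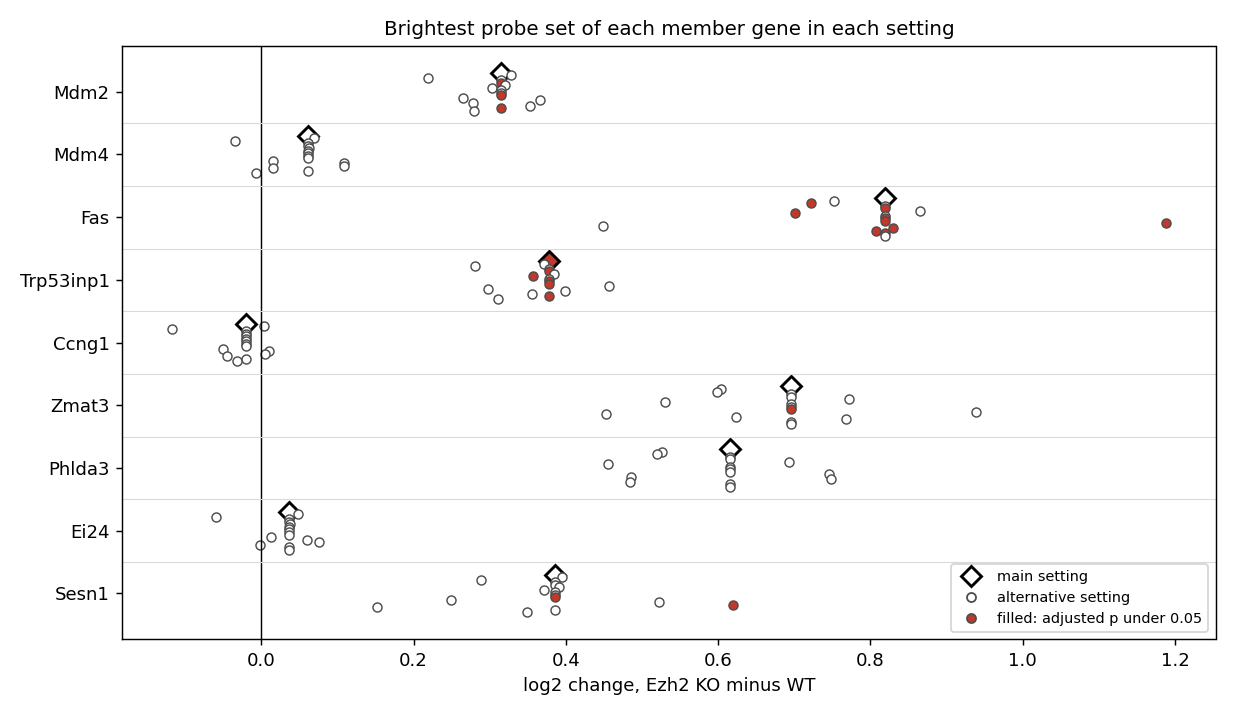
Log2 change, Ezh2 KO minus WT, of the brightest probe set of each of the 9 measured genes in the main setting (diamonds) and in the alternative settings (circles), filled where the adjusted p was under 0.05. Fas ran from 0.45 to 1.19 and Sesn1 from 0.15 to 0.62, Mdm2, Trp53inp1, Zmat3 and Phlda3 also stayed above 0, and Mdm4, Ccng1 and Ei24 lay on both sides of it.

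For the rest of the pathway each gene was read at its probe set of highest mean. Of 36 listed further p53 targets 31 were tested, of which 4 were higher and 1 lower, where 4.67% of all genes tested were higher and 4.93% lower. Their median log2 change was 0.12, against 0.0057 over all genes and 0.38 over the 9 member genes. Cdkn1a, which encodes the cell cycle inhibitor p21, had 404 and 402 units in Ezh2 KO and 194 and 196 units in WT and rose 1.99-fold (limma adjusted p = 0.00286). A further Cdkn1a probe set, 1421679_a_at, overlapped between the groups, at 186 and 173 units in Ezh2 KO and 188 and 119 units in WT, and the mean over both lost the call (log2 change 0.62, limma adjusted p = 0.0618).

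The antiproliferative gene Btg2 had 1651 and 1599 units in Ezh2 KO and 1086 and 898 units in WT and rose 1.63-fold (limma adjusted p = 0.00302). Its further probe set 1448272_at rose as well, with a log2 change of 0.83. The stress gene Gadd45a had 1379 and 1253 units in Ezh2 KO and 889 and 908 units in WT and rose 1.46-fold. Rev3l, the catalytic subunit of a translesion DNA polymerase, had 2793 and 2665 units in Ezh2 KO and 2097 and 2038 units in WT and rose 1.32-fold (limma adjusted p = 0.00946). Its dimmer probe set 1451960_a_at overlapped between the groups (log2 change -0.02). Over the mean of all its probe sets, with those below the filter included, the change was -0.015. Rps27l, a ribosomal protein paralog, was the lower one, with 9962 and 9904 units in Ezh2 KO and 12041 and 11818 units in WT, and fell by 0.26 on the log2 scale (limma adjusted p = 0.0235). Its call was lost without WT replicate 1 or 2, at -0.25 and -0.28, and both its further probe sets fell as well, by 0.31 and 0.26. Transcripts of the related ribosomal protein gene may share its probes.

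Of 35 listed regulators of p53, 33 were tested, of which 2 were higher and 1 lower, near the background, with a median log2 change of -0.04. The unadjusted p was under 0.05 for 8 of the 33, also near the background, against 24.45% of all tested genes. Hipk2, a kinase that phosphorylates p53, had 1393 and 1470 units in Ezh2 KO and 1066 and 1118 units in WT and rose 1.31-fold (limma adjusted p = 0.0223). The further tested probe sets of Hipk2, all dimmer, had no call. Their log2 changes were 0.37, 0.22, 0.38, 0.35 and -0.30, the groups overlapping in the last. Over the mean of its probe sets Hipk2 was not called. Sirt1, a deacetylase of p53, had 2108 and 2219 units in Ezh2 KO and 1507 and 1818 units in WT and rose 1.30-fold (limma adjusted p = 0.0419). Huwe1, a ubiquitin ligase with p53 among its substrates, had 2014 and 2100 units in Ezh2 KO and 2491 and 2490 units in WT and fell by 0.27 on the log2 scale (limma adjusted p = 0.0459). Its 4 further tested probe sets, all dimmer, had no call and log2 changes of 0.03, 0.30, -0.23 and 0.12, and over the mean of its probe sets the change was -0.014 (limma adjusted p = 0.974). With median centring 0 of the 33 were called by limma (8 at an unadjusted p under 0.05), and leaving out WT replicate 1 or Ezh2 KO replicate 2 also gave 0 (6 and 5). Huwe1 lost its call without any 1 of the arrays, at log2 changes of -0.30 to -0.24. Hipk2 lost it without WT replicate 1, WT replicate 2 or Ezh2 KO replicate 2, at 0.35, 0.42 and 0.35. Sirt1 lost it without WT replicate 1, at 0.25 (limma adjusted p = 0.197), and without Ezh2 KO replicate 2, at 0.35 (limma adjusted p = 0.0568). Cdkn2a, from which Arf is made, had 41.2 and 22.0 units in Ezh2 KO and 21.6 and 22.0 units in WT. It was dim, 3 of its 4 values being close to the filter intensity, and its interval from -0.73 to 1.33 allowed a change in either direction. Where its probes lie relative to any deletion is not known here, so this value does not settle the conflict in the labels.

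**Figure D4:**
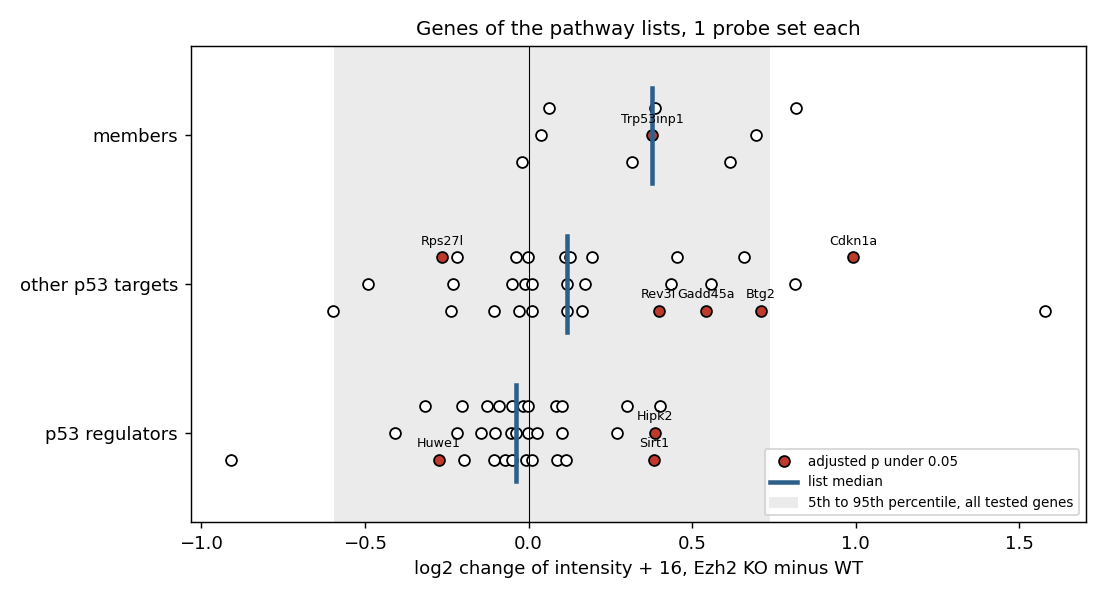
Log2 change of intensity + 16, Ezh2 KO minus WT, of the tested member genes (9), further p53 targets (31) and p53 regulators (33), each at its probe set of highest mean, with a bar at the list median and shading from the 5th to the 95th percentile of all tested genes. Filled points passed an adjusted p of 0.05, and the medians are 0.38, 0.12 and -0.04.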

How the data were processed

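Per the labels' protocols, total RNA of 4 samples was extracted with Trizol and labelled as biotinylated cRNA. The authors deposited linear intensities, 1 for each probe set. The submitters' processing notes name Affymetrix Expression Console, and its version and summary method are not given in the sources used here. Read from the values, the 2% trimmed mean of each array was 500 and the quantiles differed between arrays, so such scaling hides any difference in total mRNA. Groups and replicate numbers came from the sample titles.

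Of 45101 probe sets 64 were controls, 34945 had 1 symbol, 932 had several and 9160 were unnamed here. Symbols were matched to RefSeq by gene identifier (34741 matched, 0 changed). The 25580 probe sets with 1 symbol and a mean above the 30th percentile, 21.9 units, were tested as log2(intensity + 16) with limma 3.58.1 (R 4.3.3; functions lmFit and eBayes, prior variance following intensity). P-values were adjusted by Benjamini-Hochberg with a threshold of 0.05. The main fit had 2 residual degrees of freedom, 9.42 with the prior. The fits with the replicate block or without 1 array had fewer residual degrees of freedom. An exact permutation test of 2 against 2 cannot go below 0.333. The fit was tested on simulated data. Detection calls and probe positions were not used here. The correlation of same-numbered samples' deviations was 0.0386, and 2 numbers do not show a pairing.

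The members and lists were chosen with earlier results of these data known. The text names every member probe set, Ezh2, Cdkn2a, Cdkn1a, and up to 8 called genes of each pathway list with the largest change. The alternatives covered scaling (quantile, median), the filter (none, 50th percentile), the pseudocount (1, 64), the prior variance (single, robust), the replicate block, a threshold of 0.10, 1 probe set or the average of all probe sets per gene, and leaving out each array. The average took in a gene's probe sets below the filter as well. Python 3.11.15 and matplotlib 3.10.9 drew the figures.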

Additional observations from a re-analysis of the deposited data

How the results depend on the processing

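The number of calls depended on the processing, and so did the sizes of some changes. Against 2042 probe sets called in all (1043 higher, 999 lower), no filter gave 1229, a single prior variance 0 (4206 at an unadjusted p under 0.05), the replicate block 3469, a threshold of 0.10 3252, averaged probe sets 963 genes, and leaving out 1 array 1112 to 2030. Median centring gave 505 higher and 1088 lower, and moved the median log2 change of all tested probe sets to -0.072, against 0.025. Quantile normalization gave 2055 calls in all, pseudocounts of 1 and 64 gave 1957 and 2094, and a robust prior 2136. The 50th percentile filter gave 2307 of 19083, with 17 member probe sets tested. At an unadjusted p under 0.05 were 5594 of 25580 in the main setting and 5111 with median centring. There were 5579 with quantile normalization, 5530 with a pseudocount of 1 and 6025 of 34945 with no filter. By gene, the main setting had 24.45%. Of the member probe sets 1 was called, Trp53inp1 1416926_at. Median centring also gave 1, but that was Fas (limma adjusted p = 0.0414), and Trp53inp1 was not called (limma adjusted p = 0.218). The count was 0 with quantile normalization, no filter, a pseudocount of 1 or a single prior variance (8, 8, 8 and 6 at an unadjusted p under 0.05), 2 with a pseudocount of 64 or a robust prior, 4 with the filter at the 50th percentile, 5 at a threshold of 0.10 and 0 to 2 without 1 array. With the replicate block it was 7, and 5 in place of 1 among member genes, 8 in place of 5 among further targets and 4 in place of 3 among regulators. The replicate numbers are not known to pair the samples. Member genes called were 1, with 0 for quantile normalization, no filter, a pseudocount of 1, a single prior variance and averaged probe sets (6, 6, 6, 4 and 4 at an unadjusted p under 0.05), 2 for a pseudocount of 64 and a robust prior, 3 for the 50th percentile, the threshold of 0.10 and 1 probe set per gene, and 0 to 2 without 1 array. Further targets called were 5, with 3 for median centring and for the mean of probe sets, 0 for a single prior variance (8 unadjusted), 9 at 0.10 and 4 to 6 without 1 array. Regulators called were 3, with 0 for median centring and a single prior variance (8 and 5 unadjusted), 1 for no filter and for the mean of probe sets, and 0 to 2 without 1 array. The 1 regulator called with the mean of probe sets was lower in Ezh2 KO and was not Huwe1. Hipk2, Sirt1 and Huwe1 thus all lost their calls in that setting. The stricter filter and the single probe set per gene test fewer features, and otherwise the cause was not tested.

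The sign turned for the changes named next. Mdm4 1460542_s_at had -0.035 after centring on the median and -0.0069 with averaged probe sets. Mdm4 1458223_at had -0.049 with quantile normalization, -0.036 with median centring, -0.14 without WT replicate 2, -0.11 without Ezh2 KO replicate 2 and 0.27 without WT replicate 1. Mdm4 1453982_at had 0.10 without WT replicate 2, 0.020 without Ezh2 KO replicate 2 and -0.11 without WT replicate 1. Trp53inp1 1416927_at had -0.44 without WT replicate 2 and 0.93 without WT replicate 1. Ccng1 1420827_a_at had 0.0035 with quantile normalization, and -0.051 to 0.010 without 1 array (0.0048 without Ezh2 KO replicate 1). Ccng1 1450017_at had -0.077 with median centring and -0.0033 to 0.044 without 1 array. Ei24 had -0.060 with median centring and -0.0019 to 0.076 without 1 array, and Rev3l, called at 0.40 on its brightest probe set, had -0.015 with averaged probe sets. A fit with 1 array in a group assumes that this array varies like the others. The signal of probe sets near 21.9 units, such as those of Cdkn2a and Trp53inp1 1416927_at, limits what could be seen there.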

Other observations

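Ppm1d, a phosphatase that dampens p53 signalling, overlapped between the groups at its brightest probe set 1434142_at, with 739 and 869 units in Ezh2 KO and 791 and 800 units in WT. Its probe set 1449092_at, singled out after its values were seen, had 715 and 692 units in Ezh2 KO and 462 and 550 units in WT and passed the threshold (log2 change 0.47, limma adjusted p = 0.0401). Plk2, a kinase of the same list, had the largest log2 change among its tested genes and no call, at 42.4 and 64.1 units in Ezh2 KO and 8.60 and 5.36 units in WT (log2 change 1.58, limma adjusted p = 0.0753). It too was chosen after its values were seen, and its WT values lay below the filter intensity of 21.9 units.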
